A study of Saccharomyces cerevisiae with 28 samples.

Results

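The genes described here encode the cytosolic proteins of the small (40S) ribosomal subunit of budding yeast, Saccharomyces cerevisiae. They were taken as every gene whose standard name is RPS followed by a number, with or without a final A or B, and 56 of the 6692 genes in the files met that rule. Of these, 48 genes form 24 A and B paralog pairs and 8 genes are single copy. The libraries came from the strain YL388 at 0.0125, 0.02, 0.025, 0.05, 0.075, 0.1, 0.15, 0.2 and 0.4% glucose and from the strain YL390 at 0.2% glucose. Each condition of this set had 1 library of total RNA from whole cultures in synthetic minimal medium. Cells were grown in 0.2% glucose before they were moved for 2 h to the stated glucose. The labels identify the strains only by these numbers, so neither can be described here by its alleles, and nothing says that the cultures were separate biological samples. From what is known of the study, its subject is the relative timing of pulses of Msn2, which activates stress genes, and Mig1, a glucose-responsive repressor, and the libraries at steady glucose address how transcript levels depend on glucose.

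The small subunit holds 1 molecule of each of its proteins on a ribosomal RNA scaffold, finds the start codon and decodes the message. In yeast, ribosomal protein genes are among the most highly transcribed genes, and their transcription is tied to growth through the TOR and protein kinase A pathways. Rap1 binds most of their promoters and recruits Fhl1 and Ifh1, while Sfp1 and Sch9 respond to nutrients. Most of the genes survive as pairs from an ancient genome duplication, and introns, rare in yeast, are concentrated among them.

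Promoter sequence was examined because it is a feature that the choice of genes did not use. The letters ACCCNNACA, a short form of the Rap1 site, were searched on both strands in the 500 bases before each start codon. They were found for 18 of the 56 genes (32.14%), against 329 of 5988 genes in the genome (5.49%). The 22 matches lay 190 to 498 bases before the start codon, with a median of 341. The letters TCA and ACG with 6 bases of any kind between them, a form of the site of the general regulatory factor Abf1, were found for 12 of 56 genes (21.43%), against 22.73% of all genes. The stress element CCCCT, the core of the Msn2 site, was found for 13 of 56 genes (23.21%), against 34.08% of all genes. The Rap1 letters can overlap the looser form CCNNTACAT, which was added after the first search and was found for 11 of 56 genes (19.64%), against 5.61% of all genes. A match is a description of the letters and not a bound site. The stretches below, 150 bases each on the coding strand in the R64 assembly, show the paired Rap1 matches of RPS16A and the Abf1 matches at like places in the RPS28A and RPS28B pair. Capitals mark the matches, chrXIII:551504-551653 (+) for RPS16A, chrXV:649092-649241 (-) for RPS28A and chrXII:672880-673029 (+) for RPS28B.
RPS16A: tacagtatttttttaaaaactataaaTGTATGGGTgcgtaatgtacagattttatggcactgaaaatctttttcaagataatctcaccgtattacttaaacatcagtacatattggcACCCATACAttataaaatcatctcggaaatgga
RPS28A: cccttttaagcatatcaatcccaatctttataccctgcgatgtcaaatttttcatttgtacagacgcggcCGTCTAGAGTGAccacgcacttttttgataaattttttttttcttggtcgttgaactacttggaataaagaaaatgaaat
RPS28B: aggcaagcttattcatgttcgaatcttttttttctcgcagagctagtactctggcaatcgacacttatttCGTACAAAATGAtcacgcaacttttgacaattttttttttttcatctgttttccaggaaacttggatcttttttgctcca

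The 56 genes lie on 14 chromosomes, and 36 of them hold an intron in the coding sequence while 20 do not. None was listed at exactly 0 in any library. RPS2 and RPS27A overlap another gene in the files (YGL123C-A and YKL156C-A), so their values are set apart and given as uncertain. The intron of RPS22B contains the small nucleolar RNA gene SNR44. Read from the confidence bounds, depth was 5.92 to 9.21 M fragments (M, 1e6) in a library, and every RPS gene had at least 1032 fragments in every library. The unit is FPKM, fragments per kilobase per 1e6 mapped fragments, so a lower value cannot tell fewer transcripts of a gene from more of the others. Except for RPS2 and RPS27A, which stood at 0.99 times the centre of their confidence bounds, the listed FPKM lay above that centre. The median factor was larger for genes with short coding sequences, for example 1.32 for RPS3, 3.91 for RPS27B and 10.01 for RPS29A. Levels of short and long genes are therefore not compared with each other, while the factor of each gene was nearly the same in all libraries.

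RPS transcripts were lowest at the lowest glucose. Of the 56 genes, 51 had their lowest value of the 9 YL388 libraries at 0.0125% glucose, and 27 had their highest at 0.2%. The share of all genes with their lowest or highest value there was not counted. The summed bound centres of the RPS genes made up 9.90% of the library at 0.0125%, 12.9% at 0.025%, 14.0% at 0.1% and 14.6% at 0.4% glucose. By summed FPKM the share was 9.63% at 0.0125%, 12.9% at 0.025%, 12.7% at 0.1% and 12.8% at 0.4% glucose. The share thus rose above 0.025% by the summed bound centres and not by the summed FPKM. This holds for the sums only, and the FPKM steps of single genes are given below. In a limma fit across all genes, with a line on log2 glucose, 44 of the 56 genes fell towards low glucose, 1 rose and 11 did not pass the adjusted p threshold of 0.05. Among all 6121 genes tested, 15.7% fell and 31.6% rose. The median fitted change, as 0.0125% minus 0.4% glucose on the log2(FPKM + 1) scale, was -0.525 for the RPS genes and 0.117 for all genes. The large-subunit (RPL) genes, the group most like them, had 64 of 76 falling, 2 rising and a median of -0.534. Errors of the fitted changes are standard errors from the scatter of 9 unreplicated libraries around the line.

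Genes for proteins of the subunit's head differed in how far they fell. RPS20, which encodes a head protein, had 9035 FPKM at 0.0125%, 14144 at 0.025%, 16112 at 0.1% and 16409 at 0.4% glucose, a fitted change of -0.72 ± 0.17 (SE, limma adjusted p = 0.0071) that was -0.44 without the 0.0125% library. The 0.0125% library stood below all others and the libraries from 0.1% upwards lay close together. RPS16A, whose protein reaches towards the transfer RNA in the P site and whose promoter is printed above, had 3832 FPKM at 0.0125% and 6683 FPKM at 0.4% glucose (-0.75 ± 0.12, limma adjusted p = 0.0013). RPS25B, a member of a pair known for its role in initiation at internal ribosome entry sites, changed by -0.71 ± 0.14 (limma adjusted p = 0.0028). RPS3, which encodes a head protein at the entry channel, changed by -0.59 ± 0.14 (limma adjusted p = 0.0079), or -0.36 without the 0.0125% library. RPS15, needed for export of the pre-40S particle from the nucleus, changed by -0.50 ± 0.10 (limma adjusted p = 0.0037), and RPS31, a fusion of ubiquitin with a ribosomal protein, by -0.68 ± 0.14 (limma adjusted p = 0.0035). All 8 single-copy genes fell, with changes of -0.724 to -0.497 and a median of -0.644, among them RPS2, which is set apart.

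Genes for proteins of the body and platform included the steepest change of all. RPS27B, which encodes a zinc-binding protein, had 11399.5, 14303, 15629, 16756, 19115, 18726, 20179.7, 22955 and 20946 FPKM from 0.0125 to 0.4% glucose. Its level was lowest at 0.0125% and highest at 0.2%, and the fitted change was -0.88 ± 0.13 (SE, limma adjusted p = 0.00079). RPS22A had 5225 FPKM at 0.0125% and 9379.9 FPKM at 0.4% glucose (-0.79 ± 0.13, limma adjusted p = 0.0016). RPS7B changed by -0.70 ± 0.17 and RPS26B, whose protein sits at the exit of the message, by -0.68 ± 0.16 (limma adjusted p = 0.0076 for each). Without the 0.0125% library they changed by -0.43 and -0.40 and still passed. RPS0A and RPS0B, which encode a protein needed for maturation of the small-subunit RNA, changed by -0.40 ± 0.14 and -0.43 ± 0.11 (limma adjusted p = 0.039 and 0.012). Without the 0.0125% library RPS0A changed by -0.19 and no longer passed, and RPS0B by -0.24. RPS0A passed in 3 of the 9 refits that left out 1 library. The smallest changes that passed the threshold downwards were those of RPS6A (-0.28 ± 0.08), RPS14B (-0.30 ± 0.07) and RPS11A (-0.34 ± 0.11). Without the 0.0125% library RPS6A changed by -0.16 and RPS11A by -0.18, and neither passed. RPS6A passed in 7 and RPS11A in 6 of the 9 refits.

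**Figure D1:**
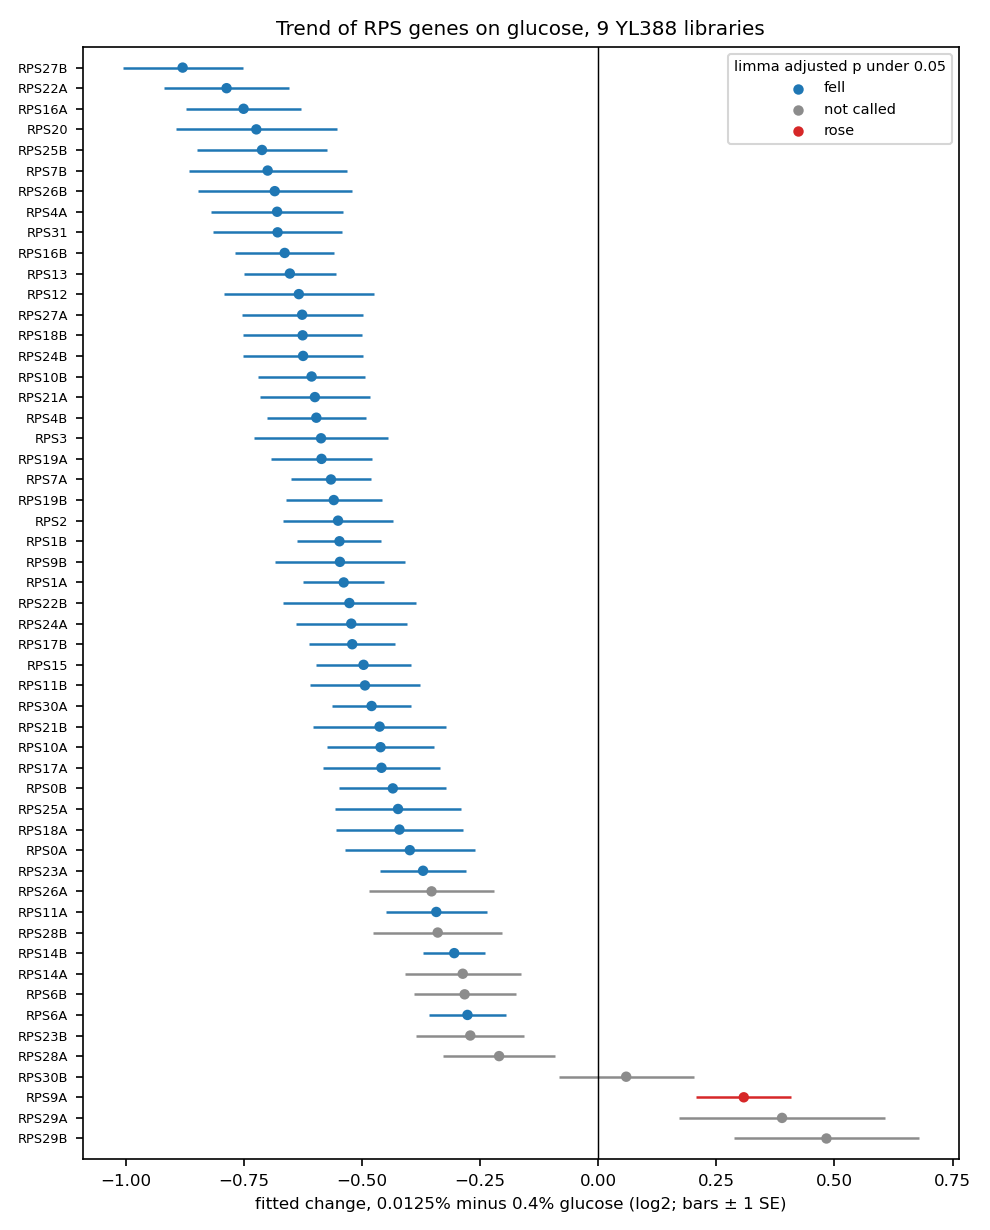
Fitted change of 53 RPS genes, 0.0125% minus 0.4% glucose on the log2(FPKM + 1) scale (x axis), with bars of 1 standard error from the limma fit over 9 YL388 libraries. RPS27B lies lowest at -0.88, and RPS30B, RPS9A, RPS29A and RPS29B lie above 0.

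RPS9A was the gene that rose. It encodes the scarcer copy of a protein near the decoding site that affects the accuracy of translation. RPS9A had 947.5, 1054.8, 988.9, 822.8, 839.2, 822.5, 876.3, 810.8 and 838.5 FPKM from 0.0125 to 0.4% glucose. The 3 libraries up to 0.025% all lay above the other 6. The fitted change was 0.31 ± 0.10 (limma adjusted p = 0.032). The call was lost without the library at 0.0125, 0.02, 0.025 or 0.2% glucose, where the change was 0.35, 0.23, 0.28 and 0.29. It was lost under quantile normalization too, with a change of 0.00021 (limma adjusted p = 0.999), and with glucose in percent as the scale (0.22, limma adjusted p = 0.28). Median-of-ratios scaling gave 0.18 (limma adjusted p = 0.18), and adjusted p over all alternatives ran from 0.024 to 0.999. The rise of RPS9A by itself thus depended on the scaling. RPS9B had 3883 FPKM at 0.0125% and 6145 FPKM at 0.4% glucose (-0.55 ± 0.14, limma adjusted p = 0.0096), and without the 0.0125% library its change was -0.32.

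The 11 genes that did not pass the threshold included RPS6B, RPS14A, RPS23B, RPS26A, RPS28A, RPS28B, RPS29A, RPS29B and RPS30B. For 8 of them the fitted change was below 0 and for 3 it was above, and 7 had an unadjusted p under 0.05. The list holds 5 of the 6 genes with a coding sequence of at most 210 bp, the RPS28, RPS29 and RPS30 pairs. RPS29B, which encodes a zinc-binding head protein, had 35285 FPKM at 0.0125%, 46638 at 0.025%, 27140 at 0.1% and 32148 at 0.4% glucose (0.48 ± 0.20, limma adjusted p = 0.071). RPS29A was likewise lowest at 0.1%, at 14299 FPKM, and its fitted change was 0.39 ± 0.22 (limma adjusted p = 0.18). Both RPS29 genes were lowest in the middle of the series, and their residual SDs around the line, 0.20 for RPS29B and 0.23 for RPS29A, were the largest of the 56. Of the 6 short genes 1 passed the threshold, RPS30A, with 24086 FPKM at 0.0125% and 32027 FPKM at 0.4% glucose (-0.48 ± 0.08, limma adjusted p = 0.0018). Other short genes varied between the libraries too, but in another way at both ends of the series. For 78 such genes outside the RPS set with a mean of at least 100 FPKM, the median deviation from each gene's mean was 0.27 (log2) at 0.0125%, -0.17 at 0.1% and -0.15 at 0.4% glucose, against 0.07, -0.02 and -0.05 for 1603 longer genes above the same limit. For the 6 short RPS genes the same median was -0.16 at 0.0125%, -0.22 at 0.1% and 0.03 at 0.4% glucose. Of these values only the low one at 0.1% was shared with the other short genes. The part of gene length in these values was not tested.

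The lowering was concentrated at the bottom of the glucose range. Between 0.0125% and 0.025% glucose the median difference was -0.397, and all 56 genes were lower at 0.0125%, as were 43.51% of all genes. Between 0.025% and 0.1% it was -0.111, with 42 genes lower at 0.025%, as were 46.56% of all genes. Between 0.1% and 0.4% it was -0.076, with 46 lower at 0.1%, as were 39.78% of all genes. Each of these later steps spanned a wider fold of glucose than the first. A curve with the square of log2 glucose gave 27 of 56 genes a square term below 0 past the threshold, against 7.38% of all genes below 0. For each of the 27 the top of the fitted curve lay inside the measured range, as it did for 451 of the 452 such genes in the whole table. The largest square terms were those of RPS7B (-0.061 ± 0.011), RPS20 (-0.057 ± 0.014, and -0.032 without the 0.0125% library), RPS12 (-0.056 ± 0.011) and RPS22B (-0.052 ± 0.008), in units of log2 per squared doubling. The count depended on single libraries: it was 3 without 0.0125%, 16 without 0.02%, 8 without 0.05%, 15 without 0.075% and 1 without 0.4% glucose.

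Levels of most RPS genes moved together across the 9 YL388 libraries. As a description, the median Pearson r between any pair of members was 0.933, and 61.88% of the 1540 pairs of members exceeded 0.9. All these values share the same 9 libraries and the same glucose series. They were not computed for all genes or for the RPL genes, so they do not set the RPS genes apart. Among the genes least like the others by their median r were RPS9A (-0.648), RPS29B (-0.46), RPS29A (-0.274) and RPS30B (0.126).

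The A and B copies of a protein were often unequal. The A gene had the higher mean share in 17 of 24 pairs and the B gene in 7, and in 8 pairs the larger copy was at least 2-fold above the smaller. RPS14A, the major gene of a platform protein, gave 89.46% ± 0.50 of the FPKM of its pair (SD over the 9 YL388 libraries). RPS22A gave 78.82% ± 1.05, RPS28A 73.55% ± 1.00 and RPS24A 73.48% ± 0.98. At the other end RPS9A gave 13.88% ± 2.85, RPS29A 36.27% ± 2.72, RPS23A 40.79% ± 0.90 and RPS1A 41.44% ± 0.69. These SDs include any change with glucose. Coding sequences of the copies were 84.34 to 99.16% identical, with a median of 92.72%. For RPS6 (99.16%), RPS4 (98.09%) and RPS24 (97.06%) the division of reads between copies is uncertain. The share of RPS27A is uncertain for another reason, since it was 42.96% by FPKM and 74.83% by the centre of the bounds.

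**Figure D2:**
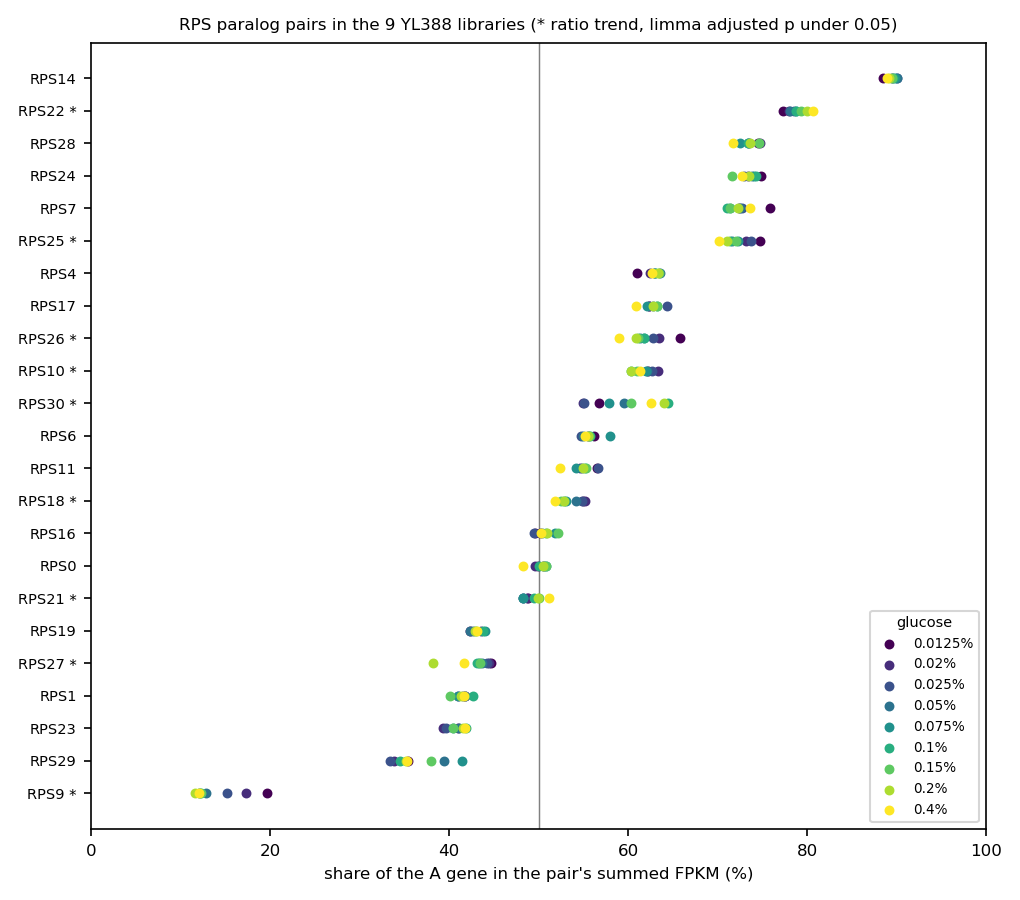
Share of the A gene in the summed FPKM of 23 pairs, in percent (x axis), with 1 point for each of the 9 YL388 libraries coloured by glucose. RPS9 lies lowest at 11.6 to 19.6% and RPS14 highest at 88.5 to 90.0%, and asterisks mark the 9 pairs drawn whose ratio changed with glucose.

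The balance of the copies changed with glucose in 10 of the 24 pairs. The test was the slope of the log2 ratio of A to B on log2 glucose in limma. Adjustment was over all 61 pairs of genes named A and B, the 24 included, and 44.3% of the 61 passed. Outside the RPS set 17 of 37 pairs passed, so such changes were not particular to RPS pairs. In 7 pairs A gained on B towards low glucose and in 3 pairs B gained on A. The ratio in the RPS9 pair changed by 0.86 ± 0.16 (SE, limma adjusted p = 0.0033), with a share of RPS9A of 19.61% at 0.0125%, 15.13% at 0.025%, 12.11% at 0.1% and 12.01% at 0.4% glucose. Its share was highest in the 3 libraries of lowest glucose and nearly level in the others. The RPS26 ratio changed by 0.33 ± 0.05 (limma adjusted p = 0.0019), and the share of RPS26A was 65.85% at 0.0125% and 58.94% at 0.4% glucose. The RPS25 ratio changed by 0.29 ± 0.05 (limma adjusted p = 0.0019), and the share of RPS25A was 74.71% at 0.0125% and 70.14% at 0.4% glucose. In the RPS25 pair both genes fell, RPS25A by -0.42 ± 0.13 (passing in 5 of 9 refits) and RPS25B more steeply, while RPS26A, at -0.35 ± 0.13, did not pass on its own (limma adjusted p = 0.054).

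The opposite direction was seen for RPS30, RPS22 and RPS21. The RPS30 ratio changed by -0.54 ± 0.13 (limma adjusted p = 0.013), and the share of RPS30A was 56.79% at 0.0125% and 62.58% at 0.4% glucose. The RPS22 ratio changed by -0.26 ± 0.04 (limma adjusted p = 0.0019), and the share of RPS22A was 77.30% at 0.0125% and 80.70% at 0.4% glucose. RPS22B carries the intron with SNR44, and the part of that RNA in its value was not tested. The RPS21 ratio changed by -0.14 ± 0.04. Others that passed included RPS27 at 0.25 ± 0.09, RPS18 at 0.21 ± 0.03 and RPS10 at 0.15 ± 0.05, with limma adjusted p from 0.0019 to 0.043. RPS9, RPS18, RPS22, RPS25, RPS26 and RPS30 passed in each of 9 refits that left out 1 library, RPS21 in 5, RPS10 in 3 and RPS27 in 2. Without the 0.2% library the RPS27 ratio changed by 0.16. Without the 0.025% library the number passing was 6. Dividing the values of a library by 1 factor does not change such a ratio beyond the effect of the pseudocount.

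Reads can tell the copies apart only where the coding sequences differ, and how evenly the differences are spread was not tested. The stretches below, 60 coding bases each from the R64 assembly, are shown for 4 called pairs, RPS9, RPS26, RPS25 and RPS22, which are 89.57 to 92.35% identical. Each was picked as the ungapped stretch with the most differences in its pair, so it holds more than the sequence as a whole. The longest identical run was 35 bases in RPS22 and RPS25 and 76 bases in RPS9. Capitals mark the bases at which the copies differ. They run from coding base 220 in RPS9A (chromosome XVI) and RPS9B (II), 286 in RPS26A (VII) and RPS26B (V), 169 in RPS25A (VII) and RPS25B (XII), and 43 in RPS22A (X) and RPS22B (XII).
RPS9A: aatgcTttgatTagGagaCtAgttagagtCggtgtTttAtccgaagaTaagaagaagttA
RPS9B: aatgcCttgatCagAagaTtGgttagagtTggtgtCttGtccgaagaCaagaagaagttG
RPS26A: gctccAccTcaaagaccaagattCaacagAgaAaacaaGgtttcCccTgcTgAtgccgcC
RPS26B: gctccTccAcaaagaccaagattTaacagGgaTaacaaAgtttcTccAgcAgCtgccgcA
RPS25A: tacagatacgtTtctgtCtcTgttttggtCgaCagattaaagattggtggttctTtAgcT
RPS25B: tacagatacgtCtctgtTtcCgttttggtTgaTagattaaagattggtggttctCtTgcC
RPS22A: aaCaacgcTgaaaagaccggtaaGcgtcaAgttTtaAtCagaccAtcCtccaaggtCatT
RPS22B: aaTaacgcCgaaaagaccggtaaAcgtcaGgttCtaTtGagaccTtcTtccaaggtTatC

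**Figure D3:**
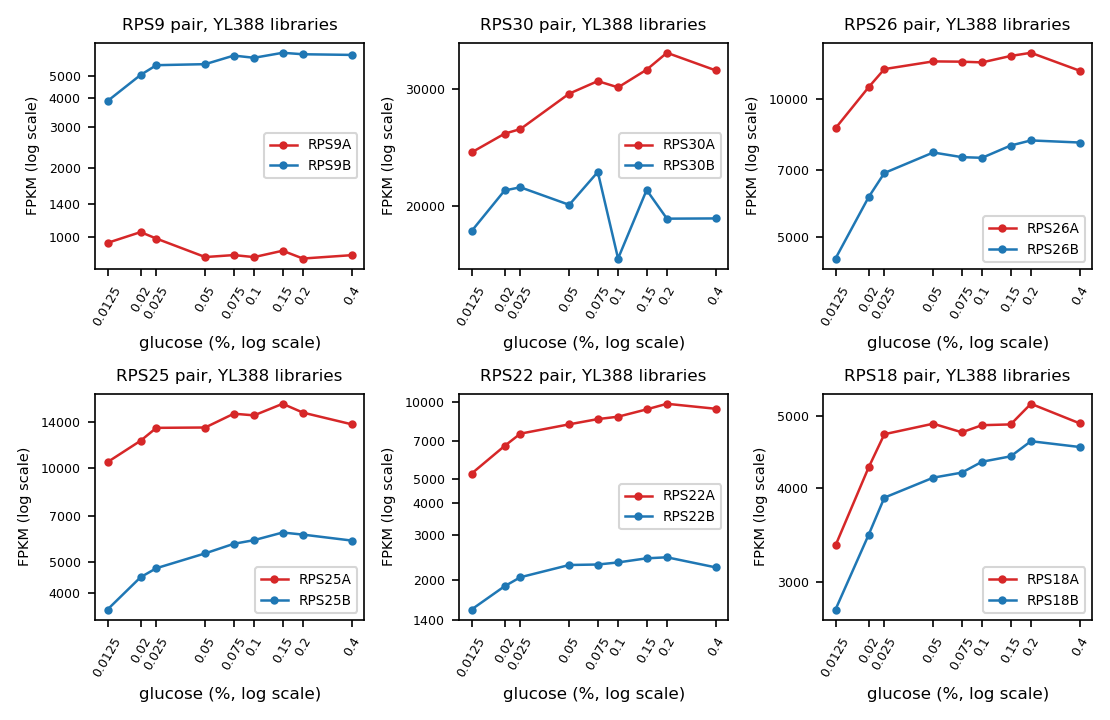
FPKM of the A gene (red) and the B gene (blue) on a log scale (y axis) against glucose in percent on a log scale (x axis) in the 9 YL388 libraries, for the RPS9, RPS30, RPS26, RPS25, RPS22 and RPS18 pairs. RPS9A stays between 810.8 and 1054.8 FPKM while RPS9B is lowest at 0.0125%, at 3883 FPKM.

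Most genes of 2 lists of factors that act on the small subunit fell as well. Of 16 assembly factors of the small subunit 13 fell, 0 rose and 3 did not pass (RIO1, HRR25 and FAP7), with a median change of -0.535. KRR1, a small-subunit assembly factor, had 116 FPKM at 0.0125% and 200.4 FPKM at 0.4% glucose (-0.75 ± 0.11). PNO1, a partner of the nuclease Nob1, had 186 FPKM at 0.0125% and 299 FPKM at 0.4% glucose (-0.69 ± 0.10), and TSR2, the chaperone that delivers the RPS26 protein, had 109 FPKM at 0.0125% and 187 FPKM at 0.4% glucose (-0.66 ± 0.12). Of 12 genes for initiation factors bound to the small subunit 10 fell, with a median of -0.392, and TIF34 and HCR1 did not pass. ASC1, which encodes a scaffold protein on the head, had 1904 FPKM at 0.0125% and 3523 FPKM at 0.4% glucose (-0.82 ± 0.13), whereas UBI4, the stress-linked polyubiquitin gene, rose with 288 FPKM at 0.0125% and 132 FPKM at 0.4% glucose (1.07 ± 0.12).

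Among 16 regulators of ribosomal protein genes 3 rose, 2 fell and 11 did not pass, with a median of -0.068. Those that rose included the protein kinase A genes TPK2 (0.90 ± 0.12) and BCY1 (0.57 ± 0.10), whereas TPK3, of the same kinase, fell (-0.33 ± 0.09, limma adjusted p = 0.015). SCH9 fell, with 43.9 FPKM at 0.0125% and 48.7 FPKM at 0.4% glucose (-0.14 ± 0.05, limma adjusted p = 0.041). RAP1 had 49.5 FPKM at 0.0125% and 56.3 FPKM at 0.4% glucose (-0.09 ± 0.10), FHL1 had 20.0 FPKM at 0.0125% and 18.2 FPKM at 0.4% (0.08 ± 0.08), and SFP1 had 26.3 FPKM at 0.0125% and 29.2 FPKM at 0.4% (-0.10 ± 0.07). IFH1 had 14.7 FPKM at 0.0125% and 19.2 FPKM at 0.4% glucose (-0.28 ± 0.12, limma adjusted p = 0.085). These are transcript levels and not the activities of the proteins.

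At 0.2% glucose the median RPS gene stood at nearly the same level in the YL390 and YL388 libraries. None of the 56 was past 2-fold, but only 2.85% of all genes were, so this count does not set the RPS genes apart. Of the 56 genes 29 were higher in YL390 and 27 lower, where 61.3% of all genes were higher. The median difference was 0.007 on the log2 scale. Among the highest were RPS29A with 30692 FPKM in YL390 and 15838 FPKM in YL388 (difference 0.95), RPS29B with 48697 FPKM in YL390 and 29132 FPKM in YL388 (0.74), and RPS30B (0.45). The lowest were RPS22B with 1986 FPKM in YL390 and 2458 FPKM in YL388 (-0.31), RPS27B (-0.24), RPS10B (-0.21) and RPS21A (-0.18). With 1 library per strain these differences have no p-value. Of the 6 genes with coding sequences of at most 210 bp, 5 were higher in YL390, with a median of 0.43, where the 78 other short genes averaging 100 FPKM or more had a median of 0.09 and the 1603 longer genes 0.02. The part of gene length was not tested.

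**Figure D4:**
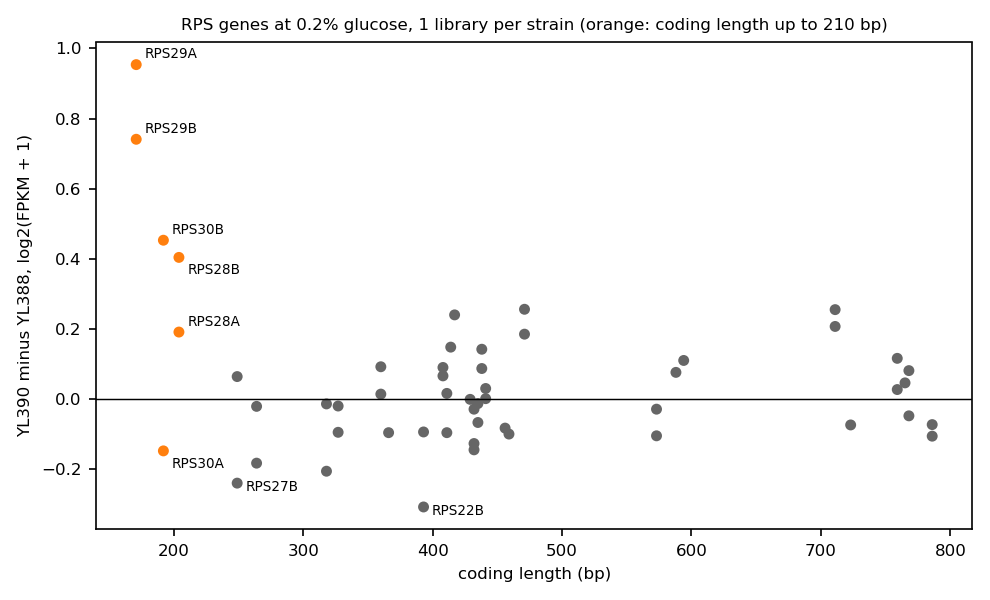
Difference between YL390 and YL388 at 0.2% glucose in log2(FPKM + 1) (y axis) against coding length in bp (x axis) for 53 RPS genes, with 1 library per strain and no error. The 6 genes of at most 210 bp are orange, and 5 of them lie above 0, with RPS29A at 0.95.

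The YL390 library was also set against the curve through the 9 YL388 libraries, on the assumption that it scatters as they do. In that fit of 10 libraries, 2 of the 56 RPS genes passed, against 3.66% of all genes, and 11 had an unadjusted p under 0.05. RPS14B, the gene of the minor RPS14 copy, which in yeast is repressed by its own protein product, had 1031 FPKM in YL390 and 873 FPKM in YL388, an offset of 0.27 ± 0.06 (limma adjusted p = 0.036). RPS22B lay below the curve by -0.28 ± 0.06 (limma adjusted p = 0.036). The count was 0 without the YL388 library at 0.02, 0.05, 0.075, 0.15, 0.2 or 0.4% glucose, 1 without 0.025% and 4 without 0.0125%. It was also 0 under median-of-ratios scaling and with limma run without an intensity trend, and 1 under quantile normalization.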

How the data were processed

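RNA sequencing values of 10 samples were used, grouped by the strain number and glucose in the labels. The 18 samples of transient stress were not analysed here. The authors deposited FPKM per gene with confidence bounds, per the file headers from Cufflinks. TopHat, Cufflinks, DESeq2 and the build sacCer3 are named in the submitters' processing notes. Not given in the sources used here were versions, annotation, strand handling and the treatment of reads with several matches. No fragment counts were used, so depth was read from the width of the bounds, as 2 Poisson standard deviations each side, which covers counting error only.

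Values were taken as log2(FPKM + 1), on which the changes of low genes are understated, for genes averaging 1 FPKM or more. Fits used limma 3.58.1 in R 4.3.3 over the whole table, with Benjamini-Hochberg adjustment and a threshold of 0.05, and were tested on simulated data. The fitted change is the slope times the log2 range of glucose. Sequences and coding introns came from the RefSeq R64 assembly, in which all 56 RPS genes had the same coordinates as in the files. No protein sequence was used.

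The members, the gene lists and the rules were chosen with earlier results of these data known. Genes named with values were the 8 steepest falls, every rise, the 4 smallest called changes, the 4 highest and 4 lowest shares and strain differences, the 4 largest square terms, all called pairs and a set chosen for role, except for a few items that are not reported here, in the text or the figures. Counts and medians cover all members. Assembly factors, initiation factors and regulators named with values were chosen after their values were seen. Alternatives were pseudocounts of 0.1 and 10, no filter on low values, 2 other scalings, the centre of the bounds, limma without an intensity trend, glucose in percent, leaving out each YL388 library and leaving out overlapping genes.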

Additional observations from a re-analysis of the deposited data

How the results depend on the processing

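Most results kept their direction and their side of the threshold, but several alternatives could hardly change them. The pseudocounts and the filter barely touch genes at these levels, and leaving out overlapping genes reused the same fit of each gene. Leaving out 1 YL388 library at a time gave 36 to 48 RPS genes that fell, 0 to 2 that rose and a median change of -0.63 to -0.36, and 36 of the 44 fell in all 9 refits. It gave 1 to 29 square terms below 0, 0 to 4 genes off the YL388 curve and 6 to 10 paralog ratios past the threshold. With glucose in percent as the scale, limma called 0 RPS genes falling and 0 rising, with 18 at an unadjusted p under 0.05, 0 of all genes called, a median change of -0.39 and 2 ratios. Median-of-ratios scaling gave 0 rising genes, a median change of -0.65, 17 square terms, and 0 genes off the curve with 11 at an unadjusted p under 0.05. Quantile normalization gave 0 rising genes and 1 off the curve, and limma without an intensity trend gave 0 off the curve. The median of all genes moved to -0.00091 under median-of-ratios scaling and to -0.078 under quantile normalization. RPS30B turned to -0.065 and -0.17 in the same order. The median offset of YL390 from the curve turned to -0.015 under median-of-ratios scaling, and ran from -0.0055 (without 0.1%) to 0.047 (without 0.4%) over the refits. The median strain difference turned to -0.055 under median-of-ratios scaling and to -0.00016 without the overlapping genes. The cause of these changes was not tested. No paired analysis was possible because each group of the steady-state series has 1 library. Depth limits no RPS value, with at least 1032 implied fragments each.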
